A study of Mus musculus with 6 samples.

Results

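Endothelial cells line the blood vessels that grow into the embryonic cortex, and pericytes are the mural cells that wrap them. The set described here held 31 mouse genes known to mark these cells, 25 endothelial and 6 pericyte, of 19988 gene symbols on the array. Its members were chosen by name, and their probes were the non-control probes whose RefSeq accession maps to a member symbol. All 31 genes had a probe, and 26 had 1 probe while 5 had 2.

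Gene expression was measured on 6 1-colour Agilent arrays of S-phase cells sorted from mouse dorsal telencephalon, the embryonic tissue that forms the cortex, at embryonic day 14.5. Tis21-GFP positive cells filled 3 arrays, and the other 3 held cells negative for Tis21-GFP. Tis21 (gene Btg2) is switched on in neural progenitors that go on to produce neurons, and the study asks how S phase changes at that switch. All embryos of both groups were on a C57BL/6J background and carried 1 GFP knock-in allele at the Tis21 locus, from homozygous males and wildtype females, so the GFP-negative cells had the allele too. Each replicate pooled 30 hemispheres of 15 embryos and about 200000 sorted cells. The sort used DNA content and GFP, so the negative gate took any GFP-negative cell with a DNA content between unreplicated and fully replicated, with no vascular or other surface marker named in the labels. Per the series' design text the experiments were independent, each drew on at least 3 pregnant mice, and the authors kept the best 3 sets, by a rule not given in the sources used here. The p-values measure the spread between these pooled and selected replicates.

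In brain vessels, endothelial cells seal the barrier through claudin and cadherin junctions, respond to VEGF through the receptors Kdr and Flt1 and to angiopoietins through Tek, and hold their identity through SoxF and ETS transcription factors. They secrete PDGF-B, which draws in pericytes that carry the receptor Pdgfrb. At mid-gestation the cortex is being vascularised, so these cells divide alongside the neural progenitors.

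Values are scaled log2 signals, where 0 is the 75th percentile of the array. A probe was "well above background" where the scanner software marked it so. Testing required that mark on every array of either group, and a gene was called when its adjusted p from limma (Benjamini-Hochberg over all 13140 tested genes) was below 0.05. The sort and tissue were checked first. Eomes, a transcription factor of intermediate progenitors, averaged 5.13 in positive and 1.70 in negative cells, 3.42 ± 0.24 log2 units higher (SE, n = 3 per group, limma adjusted p = 0.000183). Btg2 itself was higher by 0.77 ± 0.17 (limma adjusted p = 0.0139). Pax6, a transcription factor of cortical progenitors, stood at 2.02 in positive and 2.01 in negative cells (limma adjusted p = 0.937). The share of probes well above background was 51.2% to 52.6% on positive arrays, against 52.7% to 56.2% on negative arrays. Over all tested genes the median difference was 0.115 log2 units, and it ran from -0.058 to 0.297 with other scalings of the arrays. Of all calls, 49.6% were higher, against 65.8% with median centring and 29.1% when the percentile came only from probes detected on every array.

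All 6 pericyte genes were called lower in Tis21-GFP positive cells. For 1 of them, Anpep, both groups were measured, at a log2 difference of -2.38. The other 5 reached no signal well above background in any positive sample. With the main processing their folds have only lower bounds, between 4.29-fold and 24.5-fold. With normexp background correction the fitted differences of the 6 genes ran from -2.56 to -0.79, all called. For the 5 genes with bounds, the normexp differences were smaller in size than the bounds, so the bounds hold for the main processing only. Endothelial genes were mixed: of the 25, 7 were called lower, 0 higher, 7 were tested without a call and 11 were too dim to be tested. The fitted differences of 13 of the 14 tested endothelial genes lay above that of Anpep, 3 of them above 0 without a call (Kdr, Egfl7 and Plvap), and the exception was Ctla2a. A second, dimmer probe went the other way for Kdr (-1.59) and Plvap (-0.2). Over all tested genes, 13.1% were called lower and 12.8% higher. Calls of at least 1 log2 unit lower covered 5 endothelial and 6 pericyte genes, against 7.5% of all genes. Every positive array lay below every negative array for 8 of the 14 endothelial and 6 of the 6 pericyte genes, against 18.6% of all genes, and above for 1 endothelial gene (Kdr, on its brighter probe), against 28.2%. Without Tis21-GFP negative replicate 1, 4 of the 14 endothelial genes were called lower (Esam, Ramp2, Mmrn2 and Ctla2a). The gap between the 2 classes was not tested, since the members were chosen with results of these data known. On the negative arrays the tested endothelial genes averaged from -3.31 (Flt1) to 3.61 (Slc2a1), and the pericyte genes from -2.14 (Abcc9) to 0.37 (Vtn). The part of probe brightness in the gap was not tested. In a sorted bulk sample, fewer cells of a type and less RNA per cell cannot be told apart.

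The filter shapes these counts. Of the 20 members tested, 11 passed through both groups, 9 through the 3 negative arrays only, and 0 on the positive arrays only. The 9 were Flt1, Eng, Vwf, Ctla2a, Pdgfrb, Rgs5, Abcc9, Vtn and Ednra, and a member that was tested through its brighter group alone is prone to differ. With no filter, so that all 31 members enter a test over 19988 genes, 6 of 25 endothelial and 6 of 6 pericyte genes were called lower and 0 higher, against 6.89% lower and 4.48% higher over all genes. The 6 endothelial genes there were Cdh5, Esam, Ramp2, Fli1, Mmrn2 and Ctla2a. Among the 10 endothelial genes above background on all 6 arrays, 5 were called lower (Esam, Cldn5, Ramp2, Cd34 and Mmrn2) and 1 higher (Kdr, at 0.45 on its brighter probe), against 11.2% lower and 14.3% higher of 12252 genes with that filter.

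For Vtn, Rgs5, Pdgfrb, Ednra and Abcc9 among pericyte genes and Ctla2a among endothelial genes, all negative arrays were well above background and no positive array was, a pattern of 1.56% of all tested genes. These genes were grouped by this pattern, so their shared direction is no separate result. Upstream sequences of 4 of them, picked after their values were seen, are shown for comparison. Each is the 250 bases before a RefSeq transcription start (build GRCm38.p6, 5′ to 3′). Capitals mark CAGGAAG, a longer form of the GGAA core bound by ETS factors such as Erg and Fli1. It was searched on both strands together with AACAAT and ACAAAG, which are Sox-type letters, and each window shown holds at most 1 match. GGAA alone was not searched.
Vtn, chr11:78498870-78499119, plus strand: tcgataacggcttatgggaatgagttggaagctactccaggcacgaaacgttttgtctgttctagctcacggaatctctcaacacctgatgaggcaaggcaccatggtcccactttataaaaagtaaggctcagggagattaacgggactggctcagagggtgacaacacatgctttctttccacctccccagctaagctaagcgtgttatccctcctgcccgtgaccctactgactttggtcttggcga
Rgs5, chr1:169655251-169655500, plus strand: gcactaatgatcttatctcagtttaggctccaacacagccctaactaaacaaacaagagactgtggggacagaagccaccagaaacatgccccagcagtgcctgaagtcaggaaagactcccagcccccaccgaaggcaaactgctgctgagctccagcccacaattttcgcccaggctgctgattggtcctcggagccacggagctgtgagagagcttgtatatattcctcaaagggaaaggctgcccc
Ednra, chr8:77724453-77724702, minus strand: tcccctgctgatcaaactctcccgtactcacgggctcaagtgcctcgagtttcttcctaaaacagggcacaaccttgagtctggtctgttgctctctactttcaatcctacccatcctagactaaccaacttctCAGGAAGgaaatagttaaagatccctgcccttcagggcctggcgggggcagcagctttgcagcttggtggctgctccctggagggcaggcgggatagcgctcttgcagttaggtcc
Ctla2a, chr13:60936567-60936816, minus strand: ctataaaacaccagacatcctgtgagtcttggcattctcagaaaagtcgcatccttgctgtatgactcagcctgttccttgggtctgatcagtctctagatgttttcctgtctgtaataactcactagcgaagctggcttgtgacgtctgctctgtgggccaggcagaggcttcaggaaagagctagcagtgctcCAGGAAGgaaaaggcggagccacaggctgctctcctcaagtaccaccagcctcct

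Ednra and Ctla2a hold CAGGAAG, and Vtn and Rgs5 hold none of the 3 motifs in this window, although both hold the shorter GGAA. The window of Abcc9, not shown, also holds none of the 3. Ctla2a has another RefSeq start whose window holds AACAAT instead of CAGGAAG. Of 32851 RefSeq promoters of this length, 10.8% hold CAGGAAG, 9.4% hold AACAAT and 16.5% hold ACAAAG on either strand. The table had 24 promoters for 19 of the 31 members. Of these 24 promoters, 8 hold CAGGAAG, 4 hold AACAAT and 4 hold ACAAAG. The 8 with CAGGAAG belong to Cd34, Ctla2a, Ednra, Egfl7, Emcn, Erg and Robo4. Letters in such a window are a description of the sequence and not a binding site.

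Vtn encodes vitronectin, an adhesive matrix protein that pericytes make in the brain. Its scaled log2 signal was -4.85, -5.55 and -4.98 on the positive arrays, against 0.82, 0.05 and 0.25 on the negative arrays. Every positive array lay below every negative array, with measured means of -5.13 in positive and 0.37 in negative cells (n = 3 per group, limma adjusted p = 0.00014). Because no positive array was well above background, the fold has only a lower bound. Here and below, an adjusted p beside such a bound tests the fitted difference and not the bound. In positive cells Vtn was at least 24.5-fold lower with the main processing. The bound is the negative mean against, on each positive array, the higher of the gene's own value and the dimmest signal well above background. Bounds here and below hold for that processing only. With normexp the fitted Vtn difference was -2.56 log2 units, smaller in size than the bound.

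Rgs5, a regulator of G-protein signalling that is a standard pericyte marker, stood at -6.20, -6.44 and -5.93 on the positive arrays, against -0.86, -2.01 and -0.91 on the negative arrays. Positive cells had Rgs5 at least 7.91-fold lower (limma adjusted p = 0.000158). The groups did not overlap, and negative replicate 2 was the dimmest of the 3 negative arrays. Pdgfrb, the PDGF-B receptor through which pericytes are recruited, stood at -4.29, -5.80 and -5.94 on the positive arrays, against -0.74, -1.42 and -0.87 on the negative arrays. It was at least 9.33-fold lower (limma adjusted p = 0.000402), again with no overlap.

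Ednra, the endothelin A receptor of mural cells, had -5.99, -6.17 and -6.13 on the positive arrays, against -1.05, -2.46 and -1.93 on the negative arrays, and was at least 5.39-fold lower (limma adjusted p = 0.000183). Abcc9, the regulatory subunit of the potassium channel that sets pericyte and smooth muscle tone, had -6.16, -4.90 and -5.83 on the positive arrays, against -1.93, -2.88 and -1.62 on the negative arrays, and was at least 4.29-fold lower (limma adjusted p = 0.000751). Positive arrays stayed dim for both genes, and no positive array reached a negative one. Anpep, which encodes aminopeptidase N, was the 1 pericyte gene above background on all 6 arrays. It had -3.67, -4.03 and -3.12 on the positive arrays, against -0.70, -1.49 and -1.49 on the negative arrays, a difference of -2.38 ± 0.29 (SE, n = 3 per group, limma adjusted p = 0.000986).

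Negative replicate 2 was the dimmest negative array for the pericyte genes, tied with replicate 3 to 2 decimals for Anpep, and 5 of the 6 had a value below both other negative arrays there. The dimmest was replicate 2 for 6 of the 14 tested endothelial genes, replicate 1 for 4 and replicate 3 for 4. Compared within same-numbered arrays, all 6 pericyte genes were lower in positive cells each time. For the 14 tested endothelial genes the median log2 difference was -0.65, -1.10 and -0.69 for replicates 1, 2 and 3, with 11 of 14 lower each time.

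**Figure D1:**
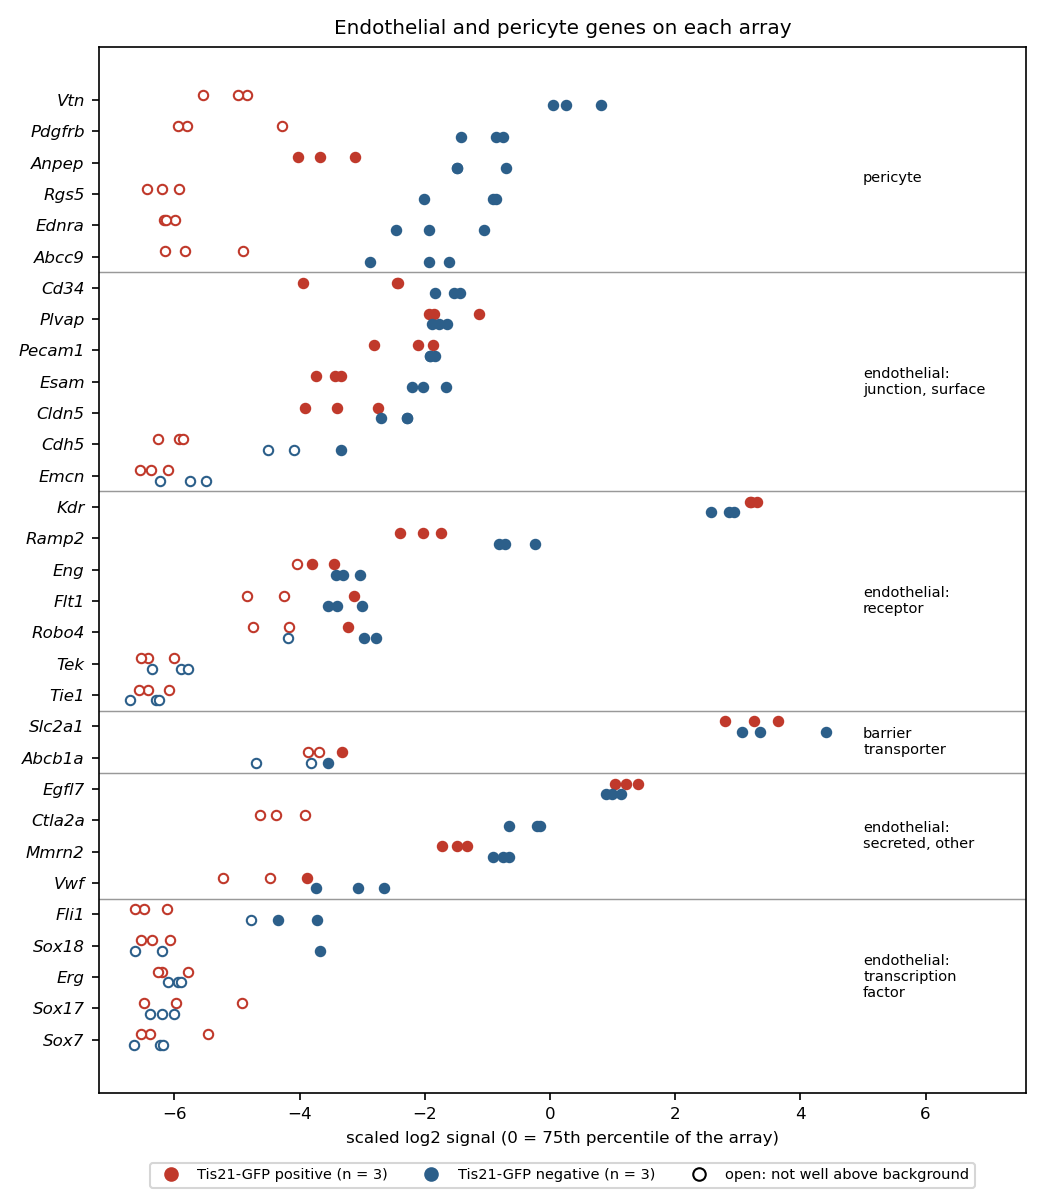
Scaled log2 signal (x axis, 0 is the 75th percentile of the array) of each of the 31 genes on the 3 Tis21-GFP positive and 3 negative arrays, with 1 point per array, grouped by role. Open points were not well above background: 5 of the 6 pericyte genes are open on all positive arrays, and all positive points of the transcription factors are open; positions of different genes come from different probes and are not comparable.

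Among the junction and surface genes of the endothelium, 3 of the 5 tested fell, 2 had no call and Cdh5 and Emcn were too dim to be tested. Esam, an adhesion molecule of endothelial tight junctions, had -3.44, -3.74 and -3.35 on the positive arrays, against -1.66, -2.21 and -2.04 on the negative arrays. The groups did not overlap, at a difference of -1.54 ± 0.19 (SE, n = 3 per group, limma adjusted p = 0.000939). Cldn5, the main claudin of the blood-brain barrier, had -2.75, -3.91 and -3.40 on the positive arrays, against -2.29, -2.29 and -2.70 on the negative arrays. Its positive replicate 1 came close to negative replicate 3, and the difference of -0.93 ± 0.28 passed narrowly (limma adjusted p = 0.0448, 0.00797 to 0.32 over the alternatives).

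Cd34, a sialomucin of the endothelial surface that blood progenitors also carry, had -2.43, -3.94 and -2.45 on the positive arrays, against -1.43, -1.53 and -1.85 on the negative arrays (difference -1.34 ± 0.38, limma adjusted p = 0.0372, 0.00599 to 0.121 over the alternatives). Positive replicate 2 was the lowest of the 6 arrays by a wide margin. Its other probe, above background on 1 positive and 3 negative arrays, differed by -0.61 and did not pass when every probe was tested on its own (limma adjusted p = 0.271), and neither did the probe used here in that test (0.0556). Pecam1, a general endothelial adhesion molecule, differed by -0.38 ± 0.23 without a call (limma adjusted p = 0.252). Its 3 negative arrays were within -1.92 and -1.84, while the positive arrays ran from -2.81 to -1.87. Plvap, a protein of fenestrated and immature vessels, had 0.12 ± 0.22 (limma adjusted p = 0.702), and its positive and negative arrays overlapped. The other Plvap probe differed by -0.2 and did not pass when every probe was tested on its own (limma adjusted p = 0.652).

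Cdh5 encodes VE-cadherin, the adherens junction cadherin that defines endothelium. It had -5.93, -6.26 and -5.87 on the positive arrays, against -4.50, -3.33 and -4.09 on the negative arrays, and was well above background on 1 negative array only. It was not tested under the filter, the bound put positive cells at least 1.2-fold lower, and the bound uses a negative mean that includes 2 arrays not above background. Without a filter it passed (limma adjusted p = 0.00748), with no measured size. Emcn, an endothelial sialomucin, was not well above background on any array.

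Among the 7 receptors, 4 were tested and 1 fell. Ramp2, the partner protein through which the adrenomedullin receptor acts, had -1.74, -2.40 and -2.04 on the positive arrays, against -0.24, -0.73 and -0.81 on the negative arrays. The groups did not overlap, at -1.47 ± 0.22 (SE, n = 3 per group, limma adjusted p = 0.00239). Flt1, the VEGF receptor that acts largely as a sink for the ligand, had -4.25, -4.84 and -3.13 on the positive arrays, against -3.00, -3.54 and -3.40 on the negative arrays, and did not pass (-0.76 ± 0.39, limma adjusted p = 0.181). Positive replicate 3 was above 2 of the negative arrays. Without it the difference was -1.23 and passed (adjusted p = 0.00963).

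Eng, a TGF-beta co-receptor of vessels, had -3.45, -3.80 and -4.05 on the positive arrays, against -3.04, -3.42 and -3.30 on the negative arrays. It did not pass at -0.51 ± 0.19 (limma adjusted p = 0.0799), although it passed with the replicate number as a block (adjusted p = 0.0374). With the block, 15% of all genes were called lower and 15.4% higher. No positive array reached a negative one. Robo4, an endothelial guidance receptor, was above background on 1 positive and 2 negative arrays and was not tested. The angiopoietin receptor Tek and its relative Tie1 were not well above background on any array.

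Kdr, the main signalling receptor for VEGF, carried 2 probes of the same RefSeq transcript that went opposite ways. The brighter one, A_55_P2094469, read 3.22, 3.20 and 3.31 on the positive arrays, against 2.57, 2.94 and 2.86 on the negative arrays, a difference of 0.45 ± 0.14 (limma adjusted p = 0.053). The other, A_51_P316553, read -4.67, -4.47 and -4.82 on the positive arrays, against -3.03, -2.96 and -3.19 on the negative arrays. No positive array showed it well above background, and on its own it was called lower, at -1.59 ± 0.15 (limma adjusted p = 0.000928) and at least 2.27-fold. The groups did not overlap on either probe, so the direction given for Kdr depends on the probe. The mean of both probes gave -0.57 (adjusted p = 0.0135). With median centring the brighter probe was called higher at 0.63 (adjusted p = 0.0307), whereas with quantile normalization it was 0.25 and did not pass (adjusted p = 0.221). Probe sequences and positions in the transcript were not analysed here.

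**Figure D2:**
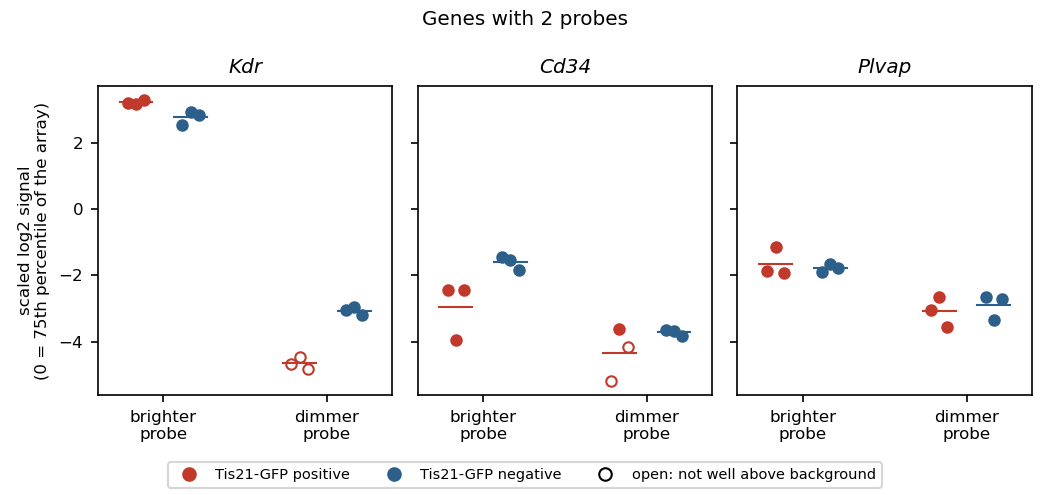
Scaled log2 signal (y axis) of the 2 probes of Kdr, Cd34 and Plvap on the 3 Tis21-GFP positive and 3 negative arrays, with 1 point per array and the mean as a line. For Kdr the brighter probe is higher in positive cells (3.24 against 2.79) and the dimmer one lower (-4.65 against -3.06).

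The barrier transporters gave no call. Slc2a1, the glucose transporter GLUT1, which neural progenitors also use, had 2.80, 3.25 and 3.65 on the positive arrays, against 3.06, 3.35 and 4.41 on the negative arrays (-0.38 ± 0.36, limma adjusted p = 0.454). Its spread between arrays of 1 group was larger than the difference between groups, and without negative replicate 3 the difference was 0.02. The drug efflux pump gene Abcb1a was above background on 1 array in each group and was not tested.

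Among secreted and other products, Ctla2a, an inhibitor of cathepsin-type proteases, stood apart. It had -4.63, -4.38 and -3.91 on the positive arrays, against -0.20, -0.65 and -0.16 on the negative arrays. Positive cells had it at least 14.6-fold lower (limma adjusted p = 0.000155), with no positive array well above background. With normexp the fitted Ctla2a difference was -1.68 log2 units, smaller in size than that bound. Ctla2a has a near-identical neighbour, Ctla2b, and whether the probe tells them apart was not analysed here. Vwf, the clotting factor of endothelial granules, had -3.89, -5.22 and -4.47 on the positive arrays, against -2.65, -3.74 and -3.07 on the negative arrays (-1.37 ± 0.37, limma adjusted p = 0.0308). Positive replicate 1 was just below negative replicate 2, and the call was lost in 7 of 16 alternatives. With the replicate block the adjusted p was 0.00128.

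Mmrn2, a matrix glycoprotein of the endothelium, had -1.73, -1.49 and -1.33 on the positive arrays, against -0.90, -0.75 and -0.65 on the negative arrays (-0.75 ± 0.15, limma adjusted p = 0.00998). The change was small and even: each positive array lay below all negative ones. Egfl7, a secreted factor of vessel tube formation, had 1.22, 1.40 and 1.03 on the positive arrays, against 0.99, 1.14 and 0.89 on the negative arrays (0.21 ± 0.15, limma adjusted p = 0.323), and its groups overlapped.

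None of the 5 transcription factors was tested. The SoxF genes Sox7 and Sox17 and the ETS gene Erg were not well above background on any of the 6 arrays. Sox18 was above background on negative replicate 3 only, at -3.68, with its other arrays between -6.63 and -6.07. Fli1, an ETS factor also active in blood cells, had -6.49, -6.63 and -6.11 on the positive arrays, against -3.73, -4.35 and -4.77 on the negative arrays, 2 of which were well above background. Without the filter it was called lower (limma adjusted p = 0.00533), with no measured size. Of the 25 endothelial genes, 13, 12 and 11 were above background on positive replicates 1, 2 and 3, against 16, 17 and 16 on negative replicates 1, 2 and 3. For the 6 pericyte genes the counts were 1 on each positive array and 6 on each negative array. The share over all genes was 64.1% to 65.7% on positive arrays, against 66.6% to 68.8% on negative arrays.

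**Figure D3:**
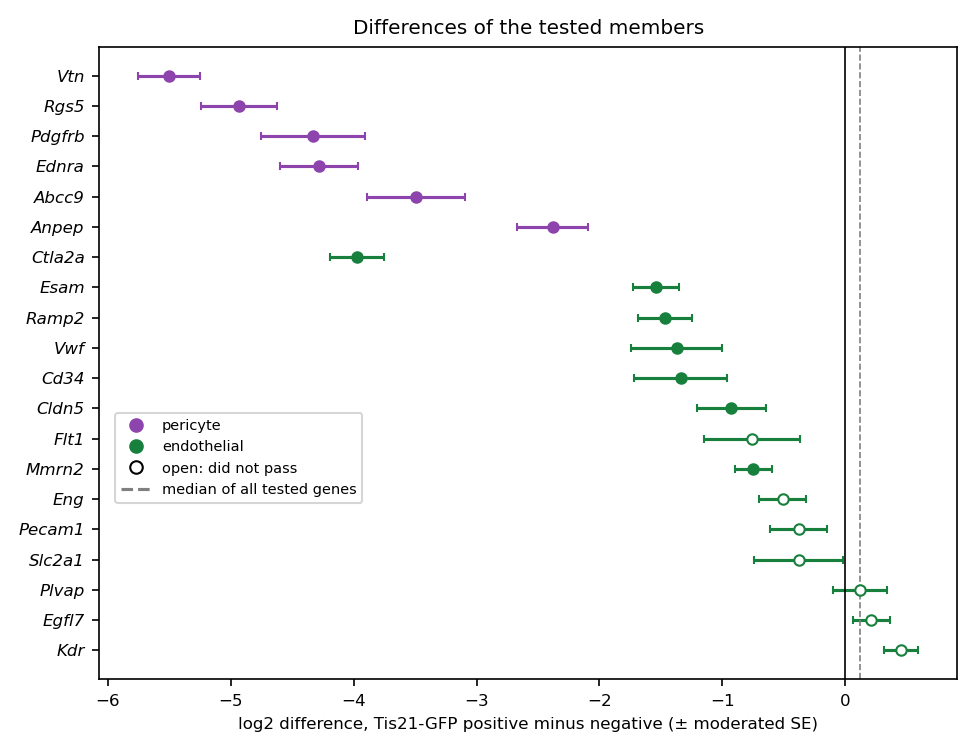
Log2 difference between Tis21-GFP positive and negative cells (x axis, ± moderated SE, n = 3 per group) of the 20 tested genes, pericyte genes above and endothelial genes below. Filled points passed at adjusted p below 0.05. Points of Vtn, Rgs5, Pdgfrb, Ednra, Abcc9 and Ctla2a are fitted values against arrays not well above background, so their sizes are not measured; the dashed line is the median of all tested genes, 0.115.

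The labelled arrays were then compared over related genes outside the set, listed with earlier results of these data known. Beside the counts below, 13.1% of all tested genes were called lower and 12.8% higher. Of 18 ligands that act on vessels, 14 were tested, 6 were lower and 2 higher, with a median of -0.41. Lower ligands included Apln, an endothelial tip cell peptide, at -2.35 ± 0.30 (limma adjusted p = 0.00122), Wnt7a, a Wnt that neural progenitors send to vessels, at -1.94 ± 0.28, the Notch ligand gene Jag1 at -0.75 ± 0.14, and Pdgfb at -0.91 ± 0.19. Higher ones were the angiopoietin gene Angpt1 at 1.38 ± 0.17 (limma adjusted p = 0.00102) and the chemokine gene Cxcl12 at 1.60 ± 0.34. Vegfa did not pass at -0.17 ± 0.46 (limma adjusted p = 0.797).

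Of 30 further endothelial genes, 23 were tested, 9 were lower and 4 higher, with a median of -0.49. These counts depended on the processing. They were 3 lower and 4 higher with normexp, and 14 lower and 3 higher when the percentile came only from probes detected on every array. The forkhead factor gene Foxq1 was at least 1.65-fold lower and Foxf2, a forkhead factor that pericytes express, at least 1.45-fold. The sphingosine receptor gene S1pr1, which neural progenitors also express, fell by 1.59 ± 0.17 (limma adjusted p = 0.000572), and Nrp1, a VEGF co-receptor that neurons also use, rose by 2.29 ± 0.23 (limma adjusted p = 0.000467). Of 20 further mural genes, 12 were tested, and 7 were lower, 0 higher and 5 without a call. Their median was -0.96 and the highest difference was 0.33. Cspg4, the NG2 proteoglycan of pericytes, was at least 6.37-fold lower (limma adjusted p = 0.00022), Notch3, a Notch receptor of mural cells, differed by -2.14 ± 0.14, Cd248 by -1.56 ± 0.19 and the myosin light chain gene Myl9 by -1.96 ± 0.29. Des, the muscle intermediate filament found in pericytes, was not well above background on any array. With no filter, 9 of the 20 mural genes were lower and 0 higher, and 7 of the 30 endothelial ones were lower and 2 higher. Over all genes the shares with no filter were 6.89% lower and 4.48% higher.

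Markers of some other cells moved with the vascular genes. Among neural lists, 7 of 8 radial glia genes were lower and 0 higher, with a median of -0.96 (6 lower and 1 higher with median centring). Slc1a3 differed by -2.12 ± 0.18, Fabp7 by -1.35 ± 0.16, Nes by -1.11 ± 0.18 and Vim by -0.81 ± 0.15. Higher were 6 of 6 intermediate progenitor genes and 3 of 6 genes of the dorsal telencephalon, with 0 lower in both. The dorsal telencephalon count was 1 with quantile normalization and 4 with median centring. Of 18 microglia and macrophage genes, 14 were tested and 13 were lower, with a median of -2.32, and their summed signal on the linear scale, in units of the array's 75th percentile, was 24.4 to 30.3 on the positive arrays and 45.1 to 50 on the negative arrays. Most of it came from Itgam, which had no call, and without it the sums were 4.65 to 8.46 on the positive arrays and 16.3 to 22.2 on the negative arrays. Aif1 differed by -2.44 ± 0.22, Trem2 by -2.83 ± 0.26 and C1qb by -1.77 ± 0.18, Laptm5 was at least 4.43-fold lower, and Spi1 and Lyz2 were not well above background on any array. Of 12 meningeal and mesenchymal genes, 8 were tested and 8 were lower, with a median of -3 and sums of 12.6 to 19.9 on the positive arrays and 37.7 to 40.6 on the negative arrays, and Twist1 and Lox were not well above background. Without Fn1, the brightest probe, the sums were 0.963 to 1.34 on the positive arrays and 4.81 to 8.06 on the negative arrays. With no filter, 12 of 17 microglia and 8 of 12 meningeal genes were lower, against 6.89% of all genes. The collagen gene Col3a1, which pericytes and meningeal fibroblasts both make, was at least 18.5-fold lower and Lum at least 4.82-fold, while Col1a1 differed by -3.5 ± 0.37 and Col1a2 by -2.5 ± 0.31. Of 12 erythroid genes, 8 were tested and 1 was lower (Epor, -1.40 ± 0.20), with sums of 29 to 84.3 on the positive arrays and 55.3 to 91.8 on the negative arrays. The sums of the pericyte genes were 0.159 to 0.211 on the positive arrays and 2.33 to 4.27 on the negative arrays, and those of the tested endothelial genes were 20.3 to 26.3 on the positive arrays and 20.4 to 34 on the negative arrays. The probes of Slc2a1 and Kdr made up most of the endothelial sum, and without them it was 3.88 to 4.17 on the positive arrays and 5.52 to 6.08 on the negative arrays. The part that these other cells, neural ones included, have in the vascular differences was not tested.

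**Figure D4:**
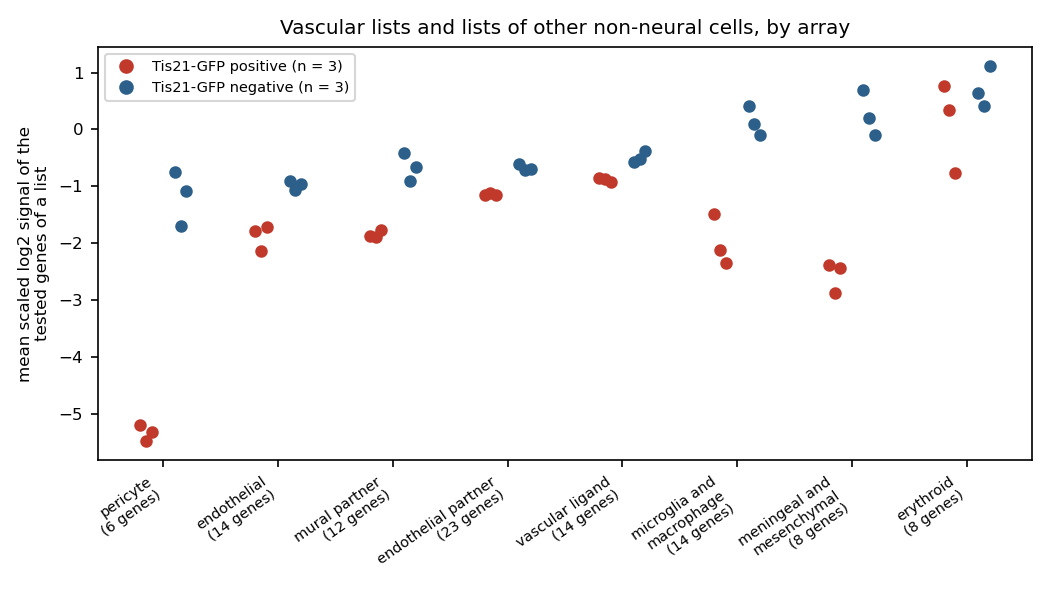
Mean scaled log2 signal (y axis) of the tested genes of each list on the 3 Tis21-GFP positive and 3 negative arrays, with 1 point per array. The positive and negative arrays do not overlap for any list but the erythroid one; heights of different lists come from different probes and are not comparable.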

How the data were processed

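The authors deposited 6 Agilent scanner files with intensity values, for which the file headers and the submitters' processing notes name Agilent Feature Extraction 10.7.1.1, and a table of log2 values. In the deposited table the 6 columns share 1 median, 4.661, and each correlated at 0.99909 or above with its array's log2 scanner signal, so its scale was taken as log2. Sorted values of its columns differed by at most 6.7e-05 at 99% of ranks, which is what quantile normalization leaves. Control and outlier spots were left out, and spots of a probe were averaged. From log2 processed intensity the 75th percentile of each array was subtracted (212.7 to 340.7 intensity units). Saturated spots numbered 0, and 3 arrays a group limit the precision. Accessions gave the probes their names through a RefSeq table of assembly GRCm38.p6 (26370 of 55681 probes), and a gene took its tested probe with the highest mean.

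The comparison used limma (version 3.58.1, R 4.3.3) with lmFit and eBayes and group as the only term, after a test on simulated data. Normexp, with an offset of 50, used the median spot signal because the files hold no mean signal. All arrays shared 1 scan date, software version and grid and were taken as 1 slide, so slide could not be a block. Both groups have replicates 1 to 3 in the labels. Array titles also share a number between the positive and negative array of a replicate. Deviations from the group means correlated at 0.23, 0.13 and 0.37 between same-numbered arrays, so the numbers were taken to pair them. The main fit did not use this pairing, which entered only through the replicate block, an alternative given below. Members, lists and tests were chosen with earlier results of these data known. All 31 members are described; from the other lists, called genes with the smallest adjusted p, up to 4 a list, with Eomes, Btg2 and Pax6 as a check of sort and tissue, plus genes chosen after their values were seen (Pdgfb, Vegfa, Cxcl12, Des, Spi1, Lyz2, Twist1, Lox, and the probes that fill the sums). Alternatives are given below.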

Additional observations from a re-analysis of the deposited data

How the results depend on the processing

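The 20 tested members had 331 values under 17 alternatives, and 292 kept their direction and side of the threshold, while 26 lost a call, 7 gained one and 6 changed sign. All 6 pericyte genes were called lower in every alternative that tested them. So were Esam, Ramp2, Mmrn2 and Ctla2a. By contrast, Cldn5 lost the call in 11 of 17 alternatives, Cd34 in 8 of 17 and Vwf in 7 of 16. Endothelial genes called lower numbered 4 with quantile normalization, 4 with the authors' processed values and 4 with normexp. Leaving out each replicate gave 4 to 8, the lowest without Tis21-GFP negative replicate 1, with medians of -0.88 to -0.57 for endothelial and -4.6 to -4.05 for pericyte genes, 6 to 6 pericyte genes lower and 0 to 0 members higher. With normexp the medians were -0.24 for endothelial and -1.28 for pericyte genes, and the cause was not tested. Pericyte medians rest on fitted values of dim probes and are not measured sizes. With no filter the endothelial median was -0.51. With probes above background on all 6 arrays, 1 pericyte gene was left (Anpep), lower at -2.38. Members called higher numbered 1 (Kdr, on its brighter probe) with that filter, 1 with median centring and 1 with the variance trend and robust fit. Signs turned for Kdr when probes of a gene were averaged (-0.57), for Plvap when the percentile came only from detected probes (-0.05), with normexp (-0.06) and when probes were averaged (-0.04), for Plvap over left-out replicates (-0.13 to 0.26) and for Slc2a1 over left-out replicates (-0.65 to 0.02). The cause of these turns was not tested. With the replicate block, 8 endothelial and 6 pericyte genes were lower, and Eng was the call it added. Over all genes, calls ran from 761 to 2347 higher and from 1175 to 2276 lower, against 1687 and 1716. Signal near background limits 11 members to no test.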
